A study of Drosophila melanogaster with 32 samples.

Results

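The adult muscle precursor transcription factors twi, zfh1, Him, Mef2 and nau were followed in 3 Drosophila melanogaster cell lines during the passages in which the cultures became continuous lines. These 5 genes were taken by name from the 15251 genes counted in each library, and all 5 passed the filter on low counts, which left 9177 genes for testing. RNA sequencing covered 32 libraries, each 1 passage of line R1, R4 or R5, a passage being the move of part of a culture into a new flask. The libraries of R1 came from passages 2, 3, 4, 5, 7, 8, 10, 11, 16, 17 and 19, those of R4 from 2, 3, 4, 5, 6, 7, 9, 11, 12, 16, 17 and 19, and those of R5 from 2, 3, 4, 6, 7, 8, 16, 17 and 19. Early means passages 2 to 4, intermediate passages 5 to 11 and late passages 16 to 19. The series text names passage 4 in both the early and the intermediate stage, and it was taken as early. Each line had 3 early and 3 late libraries, and R1, R4 and R5 had 5, 5 and 3 intermediate ones. R4 at passage 12 belongs to no named stage and is given as a value alone. The 3 lines shared Schneider's medium with serum and antibiotics, and no treatment is named. The sources used here do not give their genotype, sex or tissue of origin, and each line is 1 culture. Total counts per library ran from 7760446 to 18213927.

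In the fly, adult muscle precursors are mesodermal cells set aside in the embryo that divide through larval life before they build the adult muscles. twi encodes the basic helix-loop-helix factor Twist, which specifies mesoderm and stays on in these precursors while differentiation is held back. Zfh1, a zinc finger and homeodomain repressor, and Him, a nuclear protein that recruits the corepressor Groucho, both restrain the activity of Mef2. Mef2 encodes the MADS-box factor that turns on the genes of muscle structure, and nau encodes Nautilus, the fly member of the MyoD family. Notch signalling keeps twi on in these precursors, and twi is switched off as fibres form.

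The 5 genes spanned very different levels. Levels are given as CPM, read counts relative to library size scaled by the trimmed mean of M values, and for comparison between genes as CPM per kilobase of annotated exon. At the early stage of R1 the mean was 36.2 CPM per kilobase for twi, 21.2 for zfh1, 19.8 for Him, 4.92 for Mef2 and 2.65 for nau. twi thus ranked first and nau last. Over all 32 libraries, zfh1 ran from 80.3 to 234 CPM and Mef2 from 30.8 to 64.8 CPM, ranges of 2.92-fold and 2.102-fold. twi ran from 5.11 to 254 CPM and Him from 0.356 to 52.2 CPM, ranges of 49.7-fold and 146-fold. nau ran from no read in 4 libraries to 5.91 CPM. The SD of log2 CPM over the 32 libraries lay at or above that of 94.0% of tested genes for twi, 99.2% for Him and 95.1% for nau, against 62.8% for zfh1 and 49.5% for Mef2. In RNA from whole cultures, fewer cells with a transcript and less of it per cell cannot be told apart.

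**Figure D1:**
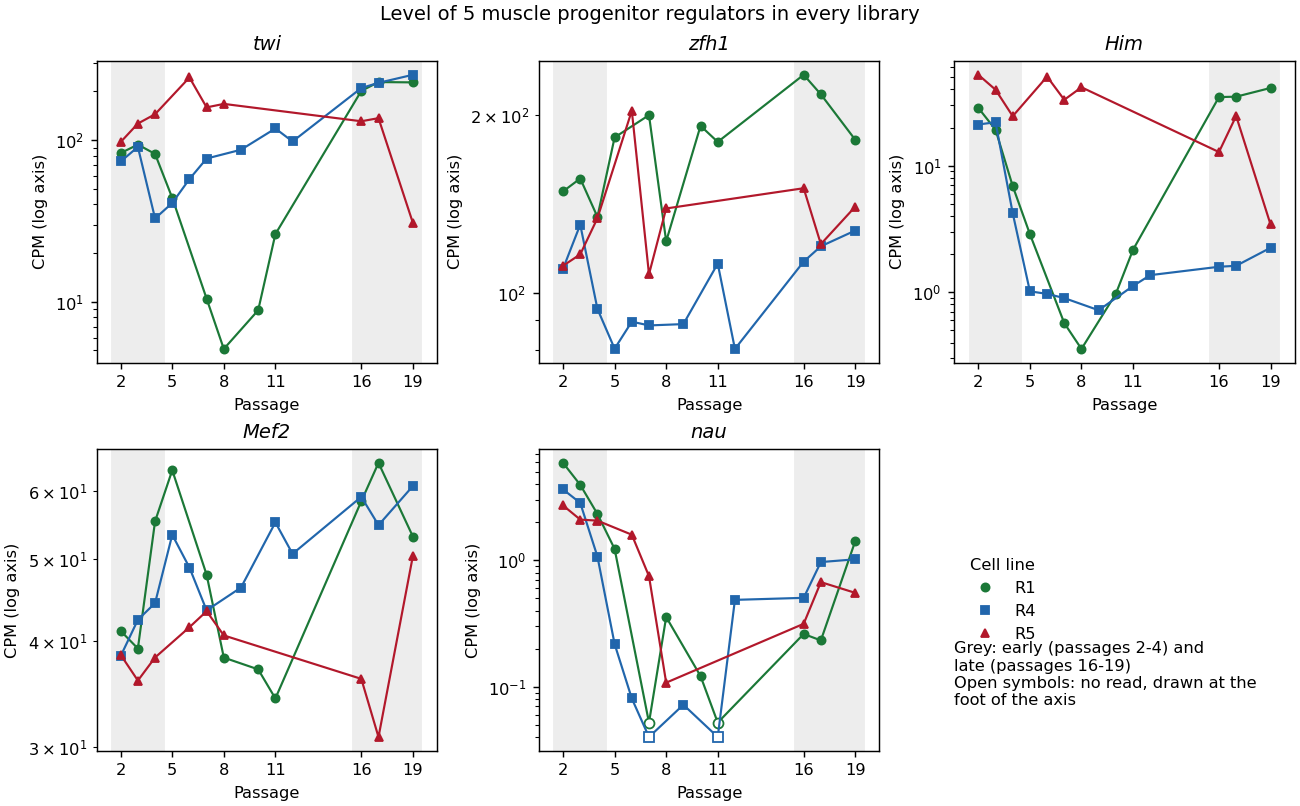
Level of each gene (CPM, log axis, each panel with its own range) against passage number, 1 point per library, joined within a line. twi and Him in R1 were lowest at passage 8 (5.11 and 0.356 CPM), Him in R4 stayed at or below 2.24 CPM from passage 5 on, and nau was highest at passage 2 in each line.

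twi fell in R1 in the intermediate passages and rose in the late ones. In R1 it stood at 83.2, 93.8 and 82.2 CPM at passages 2, 3 and 4. It then stood at 43.9, 10.4, 5.11, 8.86 and 26.2 CPM at passages 5, 7, 8, 10 and 11, and at 202, 229 and 228 CPM at passages 16, 17 and 19. The 3 stages of R1 did not overlap, with the intermediate libraries lowest and the late ones highest. twi fell in R1 from 86.4 ± 6.45 CPM (SD, n = 3 passages) at early to 18.9 ± 16.1 at intermediate (log2 change -2.17 ± 0.47 SE, adjusted p = 0.00105, edgeR quasi-likelihood test). It rose from there to 219 ± 15.4 at late (log2 change 3.51 ± 0.48 SE, adjusted p = 7.43e-06). These p-values measure the spread between successive passages of 1 culture. The late libraries of R1 were higher than its early ones, but this difference missed the threshold (log2 change 1.34 ± 0.52 SE, adjusted p = 0.0553, or 0.0486 with passage number as a replicate block, and 0.0264, 0.0366, 0.0429 and 0.0326 without R1 at passage 5 or 8, R4 at passage 4 or R5 at passage 19). With passage 4 counted as intermediate the first fall in R1 missed the threshold (log2 -1.58, adjusted p = 0.0505).

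In R4 the low point of twi came earlier and was shallower. twi stood there at 73.8, 90.7 and 32.8 CPM at passages 2, 3 and 4. At passages 5, 6, 7, 9 and 11 it stood at 40.9, 57.4, 76.9, 87.2 and 118 CPM. It reached 98.1 CPM at passage 12 and 210.1, 226 and 254 CPM at passages 16, 17 and 19. The early and intermediate libraries of R4 overlapped, and its late libraries were above both. From early (65.8 ± 29.8 CPM) to late (229.99 ± 22.03) twi rose in R4 (log2 change 1.80 ± 0.53 SE, adjusted p = 0.0118), and it also rose from intermediate (76.1 ± 29.5) to late (log2 change 1.60 ± 0.45 SE, adjusted p = 0.0194). R4 at passage 4 had a score of 4.87 on the first principal component of all tested genes, where the other early libraries lay between 31.4 and 75.7, and without it the rise from early to late had a log2 of 1.48 (adjusted p = 0.0489). With passage 4 counted as intermediate it missed the threshold (log2 1.48, adjusted p = 0.129), and the rise from intermediate to late missed it without R4 at passage 5, 17 or 19 (log2 1.44, 1.61 and 1.51, adjusted p = 0.0504, 0.0526 and 0.0754).

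R5 showed no such low point in the intermediate passages. twi stood there at 97.4, 127 and 145 CPM at passages 2, 3 and 4 and at 244, 159 and 168 CPM at passages 6, 7 and 8. At passages 16 and 17 it stood at 131 and 137 CPM, and at passage 19 at 30.8 CPM. The last library was the lowest of R5, below every early and intermediate one, and is a single library. None of the 3 steps in R5 was called for twi (log2 changes 0.63 ± 0.51, -0.94 ± 0.52 and -0.30 ± 0.52 SE from early to intermediate, intermediate to late and early to late). The changes of twi differed among the 3 lines from early to intermediate (joint F test, adjusted p = 0.0181) and from intermediate to late (adjusted p = 5.22e-04). Both of these tests were added after the levels per passage had been seen, and the first missed the threshold with passage 4 as intermediate (adjusted p = 0.282) and without passage 2 of each line (0.0758). The change from early to late was not shown to differ among the lines (adjusted p = 0.104, or 0.04896 without R1 at passage 5).

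The BDGP6 annotation places twi, on chromosome arm 2R, inside the span of CG42741, which lies on the opposite strand and shares no exon with it. Reads of the 2 genes cannot be told apart with certainty, since no strand setting is given for the counts. CG42741 stood at 6.69, 9.03 and 17.8 CPM at passages 2, 3 and 4 of R1. It held 4.51 CPM at passage 8 of that line and 42.4, 52.4 and 46.6 CPM at passages 16, 17 and 19. In R5 it stood at 9.83 CPM at passage 6 and 0.996 at passage 19. Its log2 CPM correlated with that of twi at r = 0.40 over 31 libraries, and at 0.81, 0.51 and 0.96 within R1, R4 and R5. Its part in the counts of twi was not tested. The other overlapping genes in the files were nearly silent, with at most 1 read of CG9897 and 9 reads of CG9896 in a library. A noncoding RNA gene on the same strand shares exon sequence with twi, and another on the opposite strand shares exon sequence with zfh1. Neither was analysed here, and their part in the counts was not tested.

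Him fell and rose with twi in R1, while in R4 it was low in the late passages in which twi was high. In R1 it stood at 28.6, 19.2 and 6.89 CPM at passages 2, 3 and 4. At passages 5, 7, 8, 10 and 11 it stood at 2.88, 0.5697, 0.356, 0.971 and 2.16 CPM, which at passage 8 was 3 reads. At passages 16, 17 and 19 it stood at 34.8, 35.04 and 41.1 CPM. As for twi, the 3 stages of R1 did not overlap, the intermediate libraries being lowest and the late ones highest. Him fell in R1 from 18.2 ± 10.9 to 1.39 ± 1.09 CPM (log2 change -3.67 ± 0.56 SE, adjusted p = 3.29e-05) and rose to 36.96 ± 3.55 at late (log2 change 4.68 ± 0.56 SE, adjusted p = 1.39e-06). From early to late the log2 change was 1.01 ± 0.54 (SE, adjusted p = 0.164, or log2 1.27 and adjusted p = 0.0274 with passage number as a replicate block).

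In R4 Him fell and stayed below its early level. It stood at 21.1, 22.01 and 4.21 CPM at passages 2, 3 and 4. At passages 5, 6, 7, 9 and 11 it stood at 1.02, 0.969, 0.898, 0.7201 and 1.12 CPM. Its level was 1.36 CPM at passage 12 and 1.59, 1.62 and 2.24 CPM at passages 16, 17 and 19. Every later library of R4 was below every early one. Him fell in R4 from early to intermediate (log2 change -4.06 ± 0.57 SE, adjusted p = 1.78e-05) and from early to late (log2 change -3.12 ± 0.65 SE, adjusted p = 0.00101). The late libraries of R4 lay above its intermediate ones, with no call (log2 change 0.93 ± 0.70 SE, adjusted p = 0.427). At the same late passages twi in R4 was at its highest.

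In R5 Him stayed high through the intermediate passages. It stood at 52.2, 39.8 and 24.6 CPM at passages 2, 3 and 4, and at 50.5, 33.1 and 41.6 CPM at passages 6, 7 and 8. At passages 16, 17 and 19 it stood at 12.8, 24.7 and 3.43 CPM. The early and late ranges overlapped by a narrow margin, since passage 17 was just above passage 4. No step of Him in R5 was called (early to late log2 change -1.51 ± 0.55 SE, adjusted p = 0.0598). With passage number as a replicate block the change from early to late passed (log2 -1.59, adjusted p = 0.0134), as it did without R1 at passage 4 or 5, R4 at passage 4 or R5 at passage 4 or 17 (log2 -1.51, -1.51, -1.51, -1.76 and -2.26, adjusted p = 0.0442, 0.0476, 0.0267, 0.04104 and 0.0164). Leaving out R5 at passage 17 lowered the late mean of R5 to 8.12 CPM from 13.6. From intermediate to late the log2 change of -1.61 (adjusted p = 0.101) became -2.36 (adjusted p = 0.0394), while without R4 at passage 4 its adjusted p was 0.0498.

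The change of Him from early to late differed among the lines (joint F test, adjusted p = 0.00465), and Him was the 1 gene of the 5 called in this test, against 12.8% of all tested genes. Its steps from early to intermediate (adjusted p = 0.00256) and from intermediate to late (3.06e-05) differed as well, in tests added after the levels had been seen. Of the 5 genes, 2 (twi and Him) were called in each of these added tests, against 8.65% and 15.3% of all genes. With passage 4 as intermediate the step from early to intermediate was not called for Him (adjusted p = 0.0609).

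Across libraries, log2 CPM of twi and Him correlated at r = 0.97 over the 11 libraries of R1 and 0.82 over the 9 of R5, but at -0.09 over 11 libraries of R4. In R5 both genes were lowest at passage 19 (30.8 CPM of twi, 3.43 of Him), and r without that library was not computed. At passage 2 of R5 Him was highest (52.2 CPM) with twi at 97.4 CPM. Passages 16 and 17 held more twi (131 and 137 CPM) and less Him (12.8 and 24.7 CPM). Over the 31 libraries together r was 0.60. Him and nau correlated at 0.54, 0.90 and 0.37 in R1, R4 and R5. The other 8 pairs of the 5 genes lay between -0.24 and 0.33 over the 31 libraries, but several were stronger within a line. In R1, R4 and R5, r was 0.34, 0.73 and 0.24 for twi and zfh1, and 0.60, 0.61 and -0.48 for twi and Mef2. It was -0.51, 0.61 and -0.15 for zfh1 and nau, and 0.45, -0.57 and -0.42 for Him and Mef2. These values are descriptions, since successive passages of a line share a culture and are not independent.

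**Figure D2:**
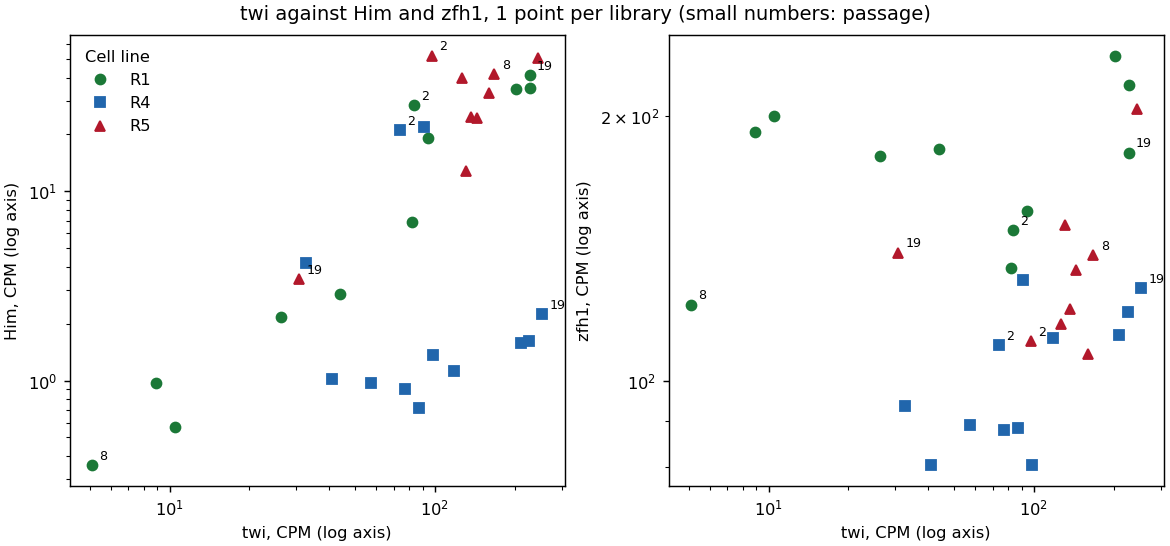
CPM of twi against CPM of Him and of zfh1 (log axes), 1 point per library, coloured by line, with passages 2, 8 and 19 numbered. R1 runs from low twi and low Him to high twi and high Him. The late libraries of R4 combine 210.1 to 254 CPM of twi with 1.59 to 2.24 CPM of Him. In R5 both genes were lowest at passage 19 (30.8 CPM of twi, 3.43 of Him). Him was highest there at passage 2 (52.2 CPM), where twi stood at 97.4 CPM.

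zfh1, the repressor acting beside Him, varied little over passages and differed between lines. Its mean in R1 was 146 ± 11.02 CPM at early, 176 ± 30.8 at intermediate and 211 ± 26.8 at late. In R4 it was 111 ± 18.3, 91.6 ± 11.95 and 120.1 ± 7.28, and in R5 120.3 ± 11.9, 149.97 ± 48.98 and 137 ± 14.95. At passage 8 of R1, where twi and Him were lowest, zfh1 stood at 122 CPM, itself the lowest value of R1 but 1.92-fold below its highest. A single step within a line was called, the rise in R1 from early to late (log2 change 0.53 ± 0.18 SE, adjusted p = 0.0303), with all late libraries of R1 above all early ones. That call was lost without R1 at passage 2, 4, 16 or 17 (log2 0.54, 0.47, 0.45 and 0.51, adjusted p = 0.0736, 0.0874, 0.112 and 0.0802), without passage 2 of each line (0.0765) and with passage 4 as intermediate (0.0889).

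Mef2 was the steadiest of the 5. In R1 it stood at 41.1, 39.2 and 55.3 CPM at passages 2, 3 and 4, at 63.5, 47.9, 38.2, 37.03 and 34.2 CPM at passages 5, 7, 8, 10 and 11, and at 58.4, 64.8 and 53.1 CPM at passages 16, 17 and 19. Passage 5, where twi and Him were already below their early libraries, was the second highest of Mef2 in R1. In R4 its mean was 41.7 ± 3.02 CPM at early, 49.4 ± 4.86 at intermediate and 58.2 ± 3.15 at late, and in R5 37.6 ± 1.42, 41.8 ± 1.404 and 39.1 ± 10.1. Mef2 rose in R4 from early to late, with no overlap between the 3 libraries of each stage (log2 change 0.48 ± 0.18 SE, adjusted p = 0.0405). Its changes from early to late were 0.38 ± 0.18 in R1 (adjusted p = 0.107) and 0.057 ± 0.18 in R5 (0.872), and the change was not shown to differ among the lines (joint F test, adjusted p = 0.439). The call in R4 was lost without R4 at passage 2, 3, 16, 17 or 19 (log2 0.43, 0.49, 0.47, 0.53 and 0.45, adjusted p = 0.126, 0.0824, 0.08898, 0.0577 and 0.0982), without the filter (0.0565) and without passage 2 of each line (0.131). The change in R1 passed without R1 at passage 4 (log2 0.55, adjusted p = 0.0319) or passage 5 (log2 0.38, adjusted p = 0.0487).

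nau, the MyoD family gene, was a low transcript that was highest in the first passages of each line. In R1 it had 83, 68 and 23 reads at passages 2, 3 and 4 (5.91, 3.96 and 2.33 CPM). It had 15, 0, 3, 1 and 0 reads at passages 5, 7, 8, 10 and 11 (1.23, 0, 0.356, 0.121 and 0 CPM), and 3, 3 and 17 at passages 16, 17 and 19 (0.262, 0.233 and 1.42 CPM). The early libraries of R1 lay above all later ones. In R4 it had 54, 36 and 13 reads at passages 2, 3 and 4 (3.64, 2.85 and 1.07 CPM), 3, 1, 0, 1 and 0 at passages 5, 6, 7, 9 and 11, 5 at passage 12, and 7, 9 and 10 at passages 16, 17 and 19 (0.505, 0.9699 and 1.02 CPM). The 3 stages of R4 did not overlap, with the intermediate one lowest. In R5 it had 51, 24 and 24 reads at passages 2, 3 and 4 (2.72, 2.103 and 2.06 CPM), 13, 6 and 1 at passages 6, 7 and 8, and 3, 6 and 5 at passages 16, 17 and 19 (0.315, 0.673 and 0.553 CPM). A library without a read allows a level of up to 0.387 CPM at 3 counts in the shallowest of these libraries, R1 at passage 11.

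From early to intermediate nau fell in R1 (log2 change -3.41 ± 0.74 SE, adjusted p = 0.00109) and in R4 (log2 change -4.83 ± 0.88 SE, adjusted p = 1.82e-04). In R5 the step was not called (log2 change -1.50 ± 0.84 SE, adjusted p = 0.236). From early to late it fell in R1 (log2 change -2.66 ± 0.83 SE, adjusted p = 0.0177). The changes were -1.62 ± 0.82 in R4 (adjusted p = 0.134) and -2.15 ± 0.87 in R5 (adjusted p = 0.0925), and both passed with passage number as a replicate block (adjusted p = 0.0407 and 0.0167). In R4 nau rose again from 5 reads over the intermediate libraries to 26 over the late ones (log2 change 3.21 ± 0.97 SE, adjusted p = 0.0303). The falls from early to intermediate in R1 and R4 were called in all 31 fits that left out 1 library, while the fall from early to late in R1 and the rise in R4 depended on single libraries. The rise in R4 was lost without R4 at passage 6, 7, 9, 11, 17 or 19 (log2 2.94 to 3.22, adjusted p = 0.0527 to 0.101) and with passage 12 as intermediate (log2 2.48, adjusted p = 0.07405) or passage 4 as intermediate (log2 1.72, adjusted p = 0.297). The change from early to late in R1 was not called without R1 at passage 2, 16 or 17 (log2 -2.30, -2.30 and -2.26, adjusted p = 0.0743, 0.0797 and 0.0896), and that in R5 passed without R1 at passage 5 (log2 -2.15, adjusted p = 0.0494). The late mean of R1, 0.638 CPM, was 0.247 without passage 19, and the intermediate means of 0.342 in R1, 0.0741 in R4 and 0.818 in R5 were 0.119, 0.0382 and 0.429 without passage 5, 5 and 6. nau shares exon sequence with CG10300, which lies on the opposite strand and had at most 8 reads in a library (0.698 CPM). In R1 the mean of CG10300 was 0.0509 CPM at intermediate and 0.336 at late, beside 0.342 and 0.638 for nau. Its part in the low counts of nau was not tested.

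**Figure D3:**
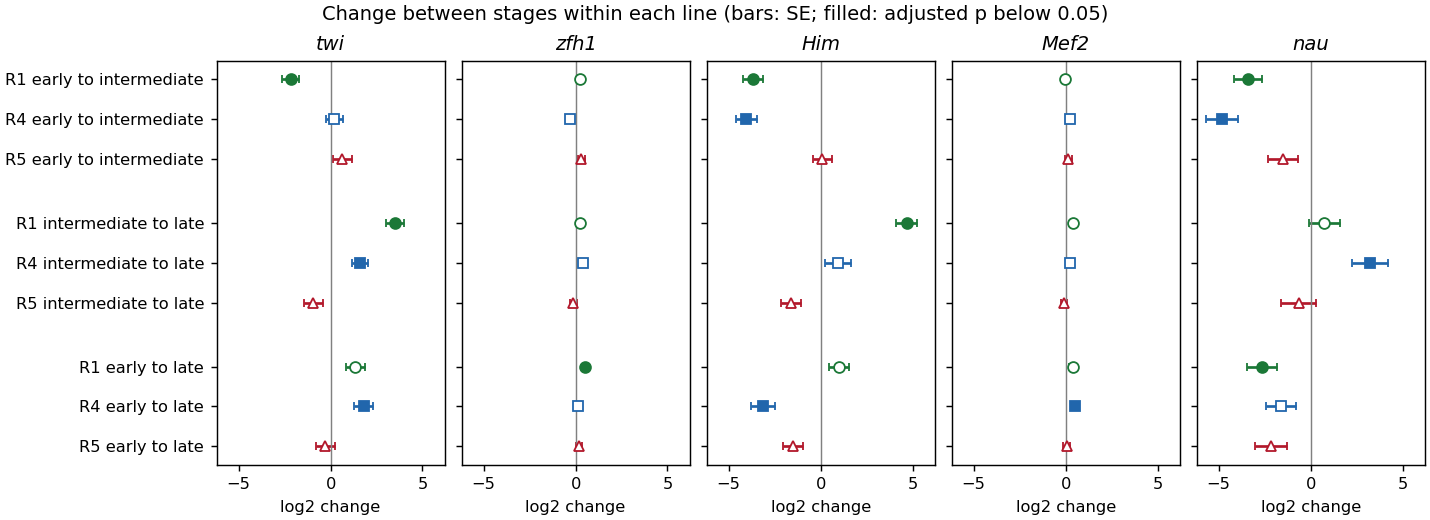
Log2 change of each gene between stages within R1, R4 and R5 from the fit of 31 libraries. Bars are standard errors, and filled symbols have an adjusted p below 0.05. Him has the largest rise plotted, 4.68 from intermediate to late in R1, and nau the largest fall, -4.83 from early to intermediate in R4, while zfh1 and Mef2 stay between -0.28 and 0.53.

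Counted by step, R1 had 3 of the 5 genes lower at intermediate than at early (twi, Him and nau), where 19.7% of all genes were lower. From intermediate to late R1 had 2 genes higher (twi and Him), against 11.4% of all genes. R4 had 2 lower at the first step (Him and nau) and 2 higher at the second (twi and nau), against 21.3% and 7.33% of all genes. From early to late R1 had zfh1 higher and nau lower, against 12.5% and 15.2% of all genes. R4 had twi and Mef2 higher and Him lower, against 14.1% and 16.7%. R5 had none called by edgeR in any of the 3 steps (early to intermediate, intermediate to late, early to late), against 14.8%, 3.72% and 17.4% of all genes. At an unadjusted p under 0.05 the counts in R5 were 0, 1 and 2, and DESeq2 called 0, 0 and 0. The shares of all genes under these rules are not given here, so these counts stand without a background.

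With the line as the replicate, no change between stages was called for any of the 5 genes. twi stood at 91.7 ± 28.9 CPM (SD, n = 3 lines) at early, 95.1 ± 87.3 at intermediate and 183 ± 72.5 at late, and from early to late its log2 change was 1.19 ± 0.74 (edgeR, adjusted p = 0.321). Him stood at 24.3 ± 12.7, 14.7 ± 23.4 and 17.5 ± 17.9 CPM (early to late -0.95 ± 1.39, adjusted p = 0.672), with SDs between lines as large as or larger than the means at intermediate and late. nau stood at 2.96 ± 0.964, 0.411 ± 0.377 and 0.661 ± 0.1603 CPM, with a log2 change of -3.02 ± 0.75 from early to intermediate (adjusted p = 0.0561) and -2.15 ± 0.71 from early to late (adjusted p = 0.103). nau was thus lower at both later stages than at early in each of the 3 lines without passing the threshold. Mef2 stood at 41.5 ± 3.82, 45.1 ± 3.87 and 52.03 ± 11.2 CPM (early to late 0.36 ± 0.11, adjusted p = 0.0902) and zfh1 at 126 ± 18.2, 139 ± 43.02 and 156 ± 48.3 CPM (0.30 ± 0.14, adjusted p = 0.207).

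The counts of 0 from early to intermediate, early to late and intermediate to late stood against 9.69%, 10.5% and 0.0763% of all genes called. At an unadjusted p under 0.05 the counts among the 5 were 1, 2 and 0, and DESeq2 called 1, 1 and 0, the 1 gene being nau in both. From early to late, 1454 of all 9177 genes were higher and 1378 lower at that unadjusted p, and DESeq2 called 768 and 1092. The shares of all genes under these rules are not given here for the other steps. DESeq2 gave nau adjusted p-values of 0.00111 from early to intermediate and 0.0277 from early to late. The first of these steps also passed without R5 at passage 6 (log2 -3.49, adjusted p = 0.0265), with passage 12 as intermediate (log2 -2.92, adjusted p = 0.0449) and without line R5 (log2 -3.94, adjusted p = 0.0465), and Mef2 passed from early to late without R5 at passage 17 (log2 0.41, adjusted p = 0.0403).

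At the early stage the 3 lines were not shown to differ in any of the 5 genes (joint F test, edgeR, adjusted p from 0.212 for Him to 0.702 for nau), where 4.69% of all genes differed. At an unadjusted p under 0.05 the count was 1 (Him) and DESeq2 called 0, with no share of all genes given here for these rules. In these tests, as in the pairwise ones below, p-values measure the spread between successive passages of 1 culture per line. They show no difference beyond that between single cultures. At the intermediate stage 4 of the 5 differed among the lines, Him (adjusted p = 9.36e-09), twi (2.03e-05), zfh1 (2.83e-05) and nau (0.0297), against 51.6% of all genes. The call for nau was lost without R4 at passage 6, 7, 9 or 11 (adjusted p = 0.05097, 0.0642, 0.0547 and 0.0611), without R5 at passage 6 (0.133) and with passage 12 (0.0771) or passage 4 (0.121) counted as intermediate. At the late stage Him (4.69e-05), zfh1 (0.00155) and Mef2 (0.0138) differed, 3 of 5 against 46.3% of all genes, a share not far above that background. twi (0.107) and nau (0.817) were not called at late. The call for Mef2 was lost without R5 at passage 16 (0.0694) or 17 (0.1198).

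Ordered by mean, the late libraries of R4 (229.99 ± 22.03 CPM) and R1 (219 ± 15.4) held the most twi, followed by R5 at intermediate (190.4 ± 46.8), and R1 at intermediate held the least. Neighbours in this order of the 9 groups differed by no more than their summed SDs, except the last pair, R4 at early and R1 at intermediate. For Him the order began with R5 at intermediate (41.7 ± 8.69 CPM), R5 at early (38.8 ± 13.8) and R1 at late (36.96 ± 3.55). R1 at early came next, beyond the summed SDs of R1 at late, and R4 at late (1.82 ± 0.3703), R1 at intermediate (1.39 ± 1.09) and R4 at intermediate (0.945 ± 0.149) formed a low group set off in the same way from R5 at late (13.6 ± 10.6). For nau the 3 early groups came first and the third of them, R5 (2.296 ± 0.369 CPM), lay beyond the summed SDs of the next group, R4 at late (0.832 ± 0.284). For zfh1 no neighbours in the order differed beyond their SDs, and for Mef2 1 pair did, R4 at late and R4 at intermediate.

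Set pair by pair at late, Him was lower in R4 than in R1 (log2 difference -4.35 ± 0.66 SE, adjusted p = 9.82e-05) and higher in R5 than in R4 (log2 difference 2.91 ± 0.66 SE, adjusted p = 0.00145). zfh1 was lower in R4 than in R1 (log2 difference -0.81 ± 0.18 SE, adjusted p = 0.00327), and also lower in R5 than in R1 (log2 difference -0.62 ± 0.18 SE, adjusted p = 0.00967), where the call was lost without R5 at passage 17 (log2 -0.54, adjusted p = 0.0533). Of the 5 genes, 2 were called between R4 and R1 at late, 3 between R5 and R1 and 2 between R5 and R4, against 14.7%, 33.7% and 34.1% of all genes. Him between R5 and R1 was the weakest of these calls (log2 -1.44, adjusted p = 0.0467), since it was lost in 20 of 31 fits that left out 1 library (adjusted p up to 0.186, without R5 at passage 19, where the log2 difference was -0.98).

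Mef2 at late was lower in R5 than in R1 (log2 difference -0.59 ± 0.18 SE, adjusted p = 0.01302) and than in R4 (log2 difference -0.58 ± 0.18 SE, adjusted p = 0.0148). Both calls were lost without the passage 16 library of R5 (log2 differences -0.53 and -0.52, adjusted p = 0.0531 and 0.0578) or 17 (log2 -0.44 and -0.43, adjusted p = 0.0901 and 0.0984), and the first also without R1 at passage 17 (log2 -0.51, adjusted p = 0.0606). Between R4 and R1 at late, twi was not shown to differ (log2 0.068 ± 0.51, adjusted p = 0.9496). twi in R5 minus R4 passed without R1 at passage 5 (log2 -1.21, adjusted p = 0.0387) and missed with all libraries (log2 -1.21 ± 0.52, adjusted p = 0.0739).

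Set pair by pair at intermediate, R5 held the most twi and Him. twi was higher in R5 than in R1 (log2 difference 3.31 ± 0.48 SE, adjusted p = 8.87e-06), higher in R4 than in R1 (log2 difference 1.98 ± 0.43 SE, adjusted p = 0.00158) and higher in R5 than in R4 (log2 difference 1.32 ± 0.45 SE, adjusted p = 0.0228). The last of these was lost without R4 at passage 5 (log2 1.17, adjusted p = 0.0546) or R5 at passage 6 (log2 1.11, adjusted p = 0.108), and the second with passage 4 as intermediate (log2 1.21, adjusted p = 0.0601). Him was higher in R5 than in R1 (log2 difference 4.86 ± 0.56 SE, adjusted p = 4.95e-07) and than in R4 (log2 difference 5.46 ± 0.58 SE, adjusted p = 1.02e-07). zfh1 was lower in R4 than in R1 (log2 difference -0.94 ± 0.14 SE, adjusted p = 3.61e-05) and higher in R5 than in R4 (log2 difference 0.71 ± 0.16 SE, adjusted p = 0.00107). Between R5 and R1 zfh1 was called only without R5 at passage 6 (log2 -0.51, adjusted p = 0.0211, against -0.23 and 0.298 with it). nau was higher in R5 than in R4 (log2 difference 3.19 ± 1.003 SE, adjusted p = 0.0144), a call lost without R5 at passage 6 (log2 2.25, adjusted p = 0.173) and with passage 4 as intermediate (log2 2.20, adjusted p = 0.0623). Of the 5 genes, 2, 2 and 4 were called between R4 and R1, R5 and R1, and R5 and R4, against 24.7%, 34.4% and 37.7% of all genes.

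Ratios of reads within a library, which no scaling between libraries can change, showed the same course for twi. In R1 there were 2.02, 2.39 and 1.49 reads of twi per read of Mef2 at passages 2, 3 and 4, 0.134 at passage 8 and 3.45, 3.53 and 4.29 at passages 16, 17 and 19. In R4 the ratio was 1.92, 2.14 and 0.739 at passages 2, 3 and 4 and 3.55, 4.13 and 4.17 at passages 16, 17 and 19. In R5 it was highest at passage 6, at 5.88, and lowest at passage 19, at 0.611. The late libraries of R1 and R4 thus carried more twi per Mef2 than their own early ones, and the last library of R5 carried less than any other of that line. For Him per Mef2, R1 at late (0.596, 0.541 and 0.774) was within the range of its early libraries from 0.125 to 0.695, or just above it. R4 at late (0.0269, 0.0295 and 0.0369) was below all of its early libraries, the lowest of which was 0.09497. For zfh1 per Mef2, R1 at late (4.01, 3.35 and 3.42) overlapped R1 at early (3.61, 3.99 and 2.43), whereas the CPM of zfh1 did not overlap between these stages. Reads per gene also depend on transcript length, so a ratio is compared between libraries and not read as a ratio of molecules.

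**Figure D4:**
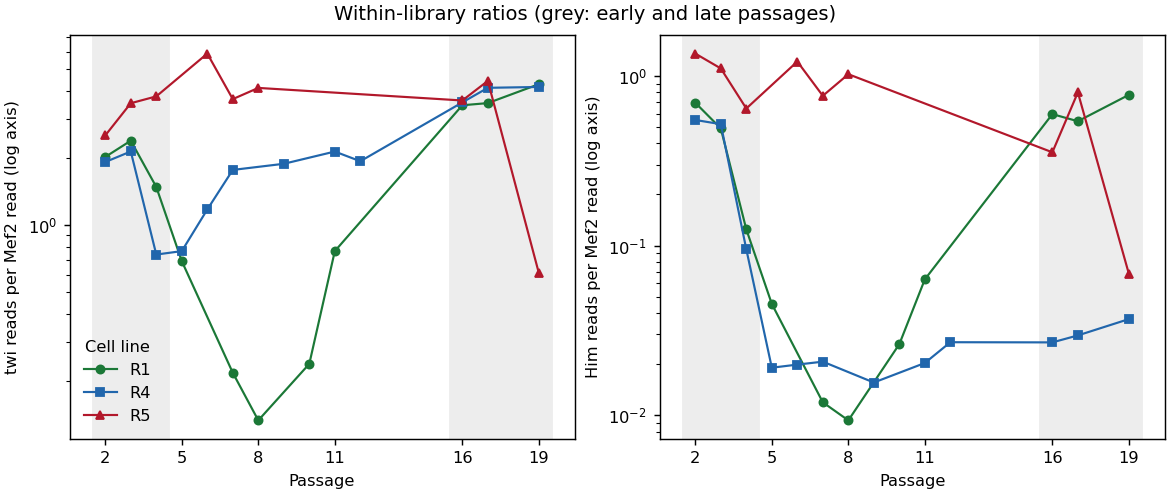
Reads of twi and of Him per read of Mef2 (log axes) against passage, 1 point per library, joined within a line. R1 falls to 0.134 reads of twi per read of Mef2 at passage 8 and ends at 4.29, while Him per Mef2 in R4 ends at 0.0369.

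Among the 9172 other tested genes, the one whose log2 CPM tracked twi most closely over the 31 libraries was nvy, which encodes Nervy, a corepressor of the ETO family (r = 0.985). It stood at 67.4, 75.3 and 66.2 CPM at passages 2, 3 and 4 of R1, 3.68 at passage 8 and 231, 259 and 267 at passages 16, 17 and 19. In R5 it stood at 94.8, 109 and 30.4 CPM at passages 16, 17 and 19, so its last library was also the lowest of R5. nvy also ranked first for twi over the means of the 9 groups (r = 0.988). CG9593 (r = 0.949) and Cph (r = 0.929) followed. For Him the 3 closest genes were Idh3a, which encodes a subunit of the citric acid cycle enzyme isocitrate dehydrogenase (0.925), Gp150 (0.922) and CG9416 (0.9203). For nau they were the Frizzled receptor gene fz3 (0.892), Gmap (0.877) and Trp1 (0.873). The closest genes to zfh1 (stx, CG33174 and CHKov1, r = 0.8398 to 0.8698) and to Mef2 (Jarid2, CG42788 and Adar, 0.811 to 0.824) had lower values. These are the highest of many correlations over passages that share cultures.

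**Figure D5:**
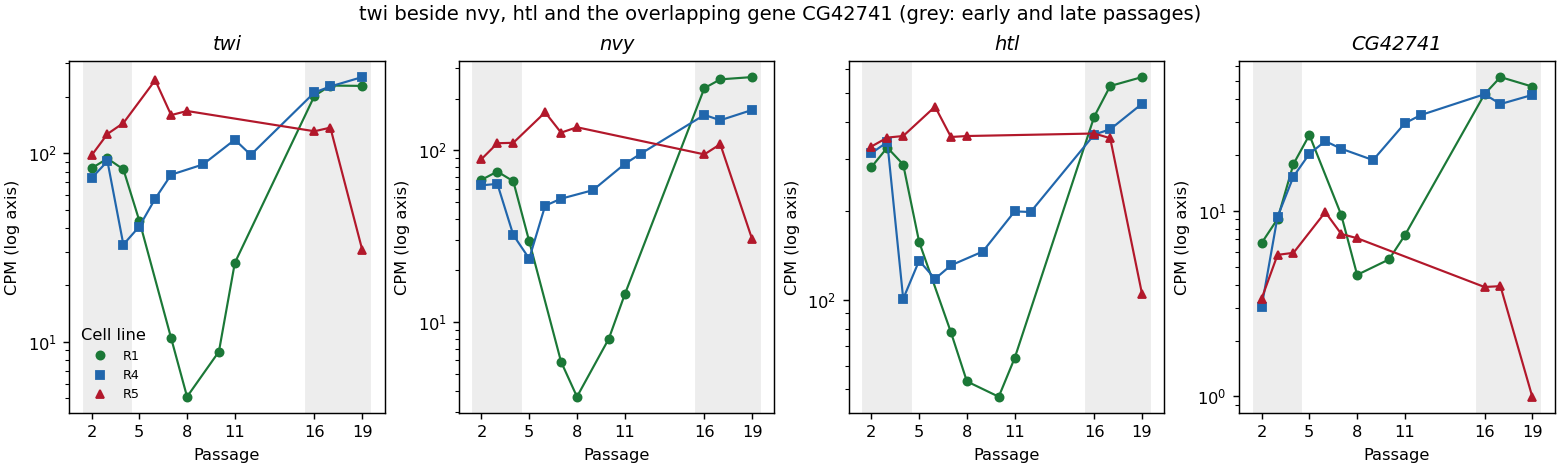
CPM (log axis) of twi, nvy, htl and CG42741 against passage, 1 point per library, joined within a line. In R1 twi and nvy were lowest at passage 8, at 5.11 and 3.68 CPM, and htl at passage 10, at 47.1 CPM, and in R5 all 4 genes were lowest at passage 19.

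Partners and upstream regulators of the 5 genes were mostly not called over the lines. da encodes the partner with which Twist and Nautilus can pair, and stood at 151 ± 4.02 CPM (SD, n = 3 lines) at early and 168 ± 7.58 at late (log2 0.20 ± 0.063, adjusted p = 0.0986). emc encodes an inhibitor of such factors and stood at 319.8 ± 36.99 and 435 ± 122 CPM (log2 0.43 ± 0.17, adjusted p = 0.138). The corepressor genes gro, the partner of Him, and CtBP, a partner of Zfh1, stood at 228 ± 8.36 and 254 ± 34.2 and at 457 ± 14.7 and 473 ± 60.3 CPM (log2 0.18 ± 0.10, adjusted p = 0.276 and log2 0.073 ± 0.076, adjusted p = 0.548). None of these 4 was called. N, the Notch receptor gene, stood at 352 ± 36.2 and 478 ± 108 CPM (log2 0.45 ± 0.16, adjusted p = 0.126). lmd, which encodes an activator of Mef2 in fusing myoblasts, was low throughout at 3.55 ± 1.302 and 2.99 ± 0.8598 CPM (log2 -0.10 ± 0.47, adjusted p = 0.9002). Of the 18 genes on the list of partners, 1 rose from early to late over the lines and 0 fell, against 3.98% and 6.56% of all genes, with a median log2 change of 0.17 against 0.03 for all genes. At an unadjusted p under 0.05 the counts were 6 and 0, against 1454 higher and 1378 lower of all 9177 genes. DESeq2 called 2 and 0, against 768 and 1092 of all genes. The gene called was E(spl)m7-HLH, a Notch target gene (1.65 ± 0.141 to 4.78 ± 2.33 CPM, log2 1.52 ± 0.35, adjusted p = 0.0485), whose call was lost in 16 of 31 fits that left out 1 library (adjusted p up to 0.0611). That call was also lost in 8 of 12 other alternatives (adjusted p up to 0.343).

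htl, the gene of the FGF receptor Heartless of mesoderm, moved with twi in R1. It stood at 281, 327 and 286 CPM at passages 2, 3 and 4 of R1, at 157, 77.7, 53.1, 47.1 and 63.6 CPM at passages 5, 7, 8, 10 and 11, and at 416, 527 and 565 CPM at passages 16, 17 and 19. In R4 it stood at 313, 341 and 101 CPM at passages 2, 3 and 4 and at 362, 377 and 459 at passages 16, 17 and 19. In R5 it stood between 329 and 449 CPM up to passage 17 and at 105 at passage 19. Over the lines its change from early to late was not called (log2 0.49 ± 0.52, adjusted p = 0.553).

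Among 22 other regulators of mesoderm and muscle precursors, 16 passed the filter. Of these 0 rose and 1 fell from early to late over the lines, with a median log2 change of -1.20 against 0.03 for all genes. The gene that fell was bin, a forkhead gene of visceral mesoderm (2.68 ± 1.48 to 0.0266 ± 0.0279 CPM, log2 -6.41 ± 1.08, adjusted p = 0.0222), whose call was lost without R1 at passage 5 (adjusted p = 0.0514). The call for bin was also lost without line R1 and without line R4. Of the 16, 4 had an unadjusted p under 0.05 and 6 were called by DESeq2, all of them lower. Of all 9177 genes, 1378 and 1092 were lower by these rules. Of 13 myoblast fusion genes tested, 1 rose (blow, log2 0.40 ± 0.091, adjusted p = 0.0445) and 0 fell, and of 21 sarcomere genes tested 0 rose and 2 fell (the actin gene Act79B, log2 -2.65 ± 0.29, adjusted p = 0.00716, and the troponin C gene TpnC73F, log2 -2.34 ± 0.30, adjusted p = 0.0114). Over all genes 3.98% were called higher and 6.56% lower. In the fusion list 3 genes had an unadjusted p under 0.05 and DESeq2 called 2, all higher, and in the sarcomere list 5 had one and DESeq2 called 4, all lower. By these rules 1454 and 768 of all genes were higher, beside the 1378 and 1092 that were lower. The median log2 change was 0.15 for the fusion list and -0.39 for the sarcomere list. The call for blow was lost in 14 of 31 fits that left out 1 library (adjusted p up to 0.149). It was also lost in 10 of 12 other alternatives, among them other scalings, no filter and a stricter filter (adjusted p up to 0.238). The calls for Act79B and TpnC73F were lost only without line R1 or line R4.

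Cultures can hold other cell types, in some of which zfh1 and Mef2 are also known to be active, such as heart cells and blood cells. Among 12 hemocyte markers edgeR called 0 from early to late over the lines. DESeq2 called 2 of them, both lower, and 2 had an unadjusted p under 0.05, both lower as well. Their summed level ran from 295 to 599.7 CPM over the early libraries of R1, 143 to 515 over its intermediate ones and 319 to 537 over its late ones. In R4 the ranges were 193 to 985, 269.9 to 1455 and 812 to 944, and in R5 242 to 865, 108 to 258 and 277 to 360.3. Of the other marker lists, 2 of 6 heart genes, 2 of 7 somatic gonad genes, 1 of 9 neuronal genes, 1 of 7 glial genes and 3 of 3 fat body genes among those tested fell, and none of these lists held a gene called higher by edgeR, where 6.56% of all genes were called lower. DESeq2 called 2 heart, 2 gonad, 2 neuronal, 5 glial and 3 fat body genes lower and 1 heart gene higher. At an unadjusted p under 0.05 the counts lower were 2, 2, 2, 5 and 3, and 1 heart gene and 1 glial gene were higher. Of all 9177 genes, DESeq2 called 1092 lower and 768 higher, and 1378 were lower and 1454 higher at that unadjusted p. The genes called by edgeR were Hand (log2 -6.44 ± 0.90, adjusted p = 0.0134) and prc (log2 -3.13 ± 0.71, adjusted p = 0.04601) of the heart, tj (log2 -10.45 ± 0.30, adjusted p = 1.21e-04) and abd-A (log2 -7.38 ± 0.84, adjusted p = 0.00845) of the gonad, VGlut (log2 -2.00 ± 0.43, adjusted p = 0.0406) of neurons and alrm (log2 -4.77 ± 0.65, adjusted p = 0.0126) of glia. The fat body genes were Fbp1, fon and apolpp, with log2 changes of -8.54, -6.87 and -3.24 (adjusted p = 0.00377, 0.00466 and 0.0126). The call for prc was lost in 8 of 31 fits that left out 1 library (adjusted p up to 0.102), and that for VGlut in 4 of 31 (adjusted p up to 0.145). Among other alternatives, prc lost its call in 5 of 12 (adjusted p up to 0.346) and VGlut in 4 of 11 (up to 0.303). Of these marker calls, only that for tj held with each line left out.

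The summed heart markers ran from 268 to 399 CPM in R1 at early to 275 to 500.5 at intermediate and 321 to 457 at late. In R4 they ran from 477 to 729, 223 to 338 and 348 to 397, and in R5 from 435 to 608, 363 to 552 and 386 to 507. Over the 3 lines Ndg had the largest mean of these markers, at 394 ± 61.6, 312 ± 121 and 371 ± 49.9 CPM (SD, n = 3 lines) at the 3 stages. Ndg thus makes up much of the sums. In R4, however, the called gene prc stood at 137 CPM at early, 12.5 at intermediate and 6.92 at late. The part of each gene in the changes of the sums was not tested. tin, the defining heart factor, had no read in the early libraries of R1 and at most 0.361 CPM in any library. The summed somatic gonad markers in R1 had their lowest range at intermediate, as twi and Him did, with 962 to 1922 CPM at early, 146 to 484 at intermediate and 756 to 872 at late. The late sums of R1 were all below its early ones, whereas twi and Him at late were all above. Over the 3 lines chinmo had the largest mean of these markers, at 723 ± 239, 477 ± 711 and 699.6 ± 319.9 CPM (SD, n = 3 lines) at the 3 stages. At intermediate its SD was larger than its mean, so that mean does not give its level in R1. tj and abd-A in R1 stood at 214 and 141 CPM at early and at 0.0517 and 0.0581 at late. In R4 the summed ranges were 469 to 1304, 184 to 326 and 461 to 546, and in R5 1360.4 to 1606, 1733 to 1819.6 and 1175 to 1540.2. The defining gene tj stood at 150.4 ± 56.2 CPM (SD, n = 3 lines) at early and 0.105 ± 0.0477 at late, the stage at which twi was highest in R1 and R4. The part of these other cell types in the changes of the 5 genes was not tested.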

How the data were processed

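RNA was depleted of ribosomal RNA and made into libraries with Script-Seq v2, per the labels' protocols. The submitters' processing notes name TopHat 1.4.1, Bowtie 0.12.8, bedtools and the genome build BDGP5 (dm3). No source used here gives the strand setting of the counting. The authors deposited 1 table of raw read counts per gene for each library, with 15253 entries. Of these, 2 carry no gene name and were dropped. These 2 entries held 0.0123% to 0.0187% of a library's counts. Gene names were matched to the BDGP6 annotation, from which exon lengths and overlaps were also taken.

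Genes with at least 1 CPM in 3 of 31 libraries were tested (9177). TMM factors scaled the counts, and the tests were edgeR's quasi-likelihood tests (version 4.0.16, Benjamini-Hochberg over all tested genes, threshold 0.05) in R 4.3.3. For stages over lines, counts were summed per line and stage, with line as a block (4 residual degrees of freedom). For changes within lines and differences between lines, the 31 single libraries were fitted in 9 groups (22 residual degrees of freedom). Log2 CPM used a prior count of 2. Both fits were tested on simulated data, in which libraries varied independently and all genes had the same spread. The simulation thus does not cover passages that share a culture. Alternatives used DESeq2 1.42.0, other scalings, filters, stage limits and blocks. The floor given for libraries without a read covers counting error only. SEs come from the fits and include the spread between the fitted libraries.

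The 5 genes and the gene lists were chosen with earlier results of these data known. The genes named besides them were, by rule, the 3 most correlated with each, 7 partners or upstream regulators (da, emc, gro, CtBP, N, htl and lmd), and up to 3 called genes of each list with the lowest adjusted p. Libraries with the same passage number deviated together between lines at early (r 0.114 to 0.729) but not at late (-0.0761 to 0.0836), and lines are the block in the fit over lines since stages of 1 line come from 1 culture (r 0.245 to 0.650).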

Additional observations from a re-analysis of the deposited data

Results flagged for a closer look

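In 3 of 10 sets of 5 libraries examined (each gene in the intermediate stage of R1 and R4), 1 library lay far from the others. The rule would flag about 1 set in 20 by chance if values were independent and normal. Successive passages of 1 culture and low counts do not meet this, so 3 of 10 cannot be read as an excess. The gap to the nearest library over the range was 0.745, 0.718 and 0.711 in the 3 sets, in the order given below, against a threshold of 0.71. zfh1 in R1 at passage 8 stood at 122 CPM, with the other 4 intermediate libraries of R1 above it. zfh1 in R4 at passage 11 stood at 112 CPM, above the other 4 of R4. nau in R1 at passage 5 stood at 1.23 CPM, where the other 4 held between 0 and 0.356.

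The change between stages differed among the 3 lines in 5 tests (joint F test, edgeR). For Him the adjusted p was 0.00465 from early to late, 0.00256 from early to intermediate and 3.06e-05 from intermediate to late. For twi it was 0.0181 from early to intermediate and 5.22e-04 from intermediate to late. The log2 changes of Him from early to late in R1, R4 and R5 were 1.01, -3.12 and -1.51.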

How the results depend on the processing

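Of 135 results on the 5 genes, 41 were called, of which 23 kept direction and call under each alternative run (other scalings and filters, DESeq2, other stage limits, line or passage blocks, a line or a library left out), and no called result changed sign. Of 5445 alternative values, 76 lost and 41 gained a call, and 42 changed sign. For early to late over the lines, 967 genes were called, against 1860 with DESeq2, 61 without R1, 34 without R4 and 625 to 1024 when 1 library was left out, the lowest being without R4 at passage 2. For the change among lines 1174 were called, and 752 without passage 2 of each line. For nau over the lines the early to late value was -2.17 with DESeq2 and -2.40 with passage 4 as intermediate, both called, and for Mef2 0.50 without R5, also called. The cause of these shifts was not tested.

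With the line left out of the model (no replicate block), 484 genes were called from early to late and twi from early to intermediate was 0.0897 in place of -0.12. With passage number as a replicate block, twi in R4 from early to intermediate was -0.10. That block moved the genes called at early to 302 for R4 minus R1, 662 for R5 minus R1, 126 for R5 minus R4 and 650 among lines, from 136, 420, 74 and 430, and among the 5 genes it also brought Mef2 in R1 from intermediate to late (0.45, adjusted p = 0.0488) and the intermediate to late change of nau among lines (adjusted p = 0.0288) past the threshold. Without R1 at passage 5, calls were also gained at intermediate for Mef2 in R4 minus R1 (0.33) and nau in R5 minus R1 (2.69), for Mef2 in R1 from intermediate to late (0.58), and for the changes among lines of nau from early to intermediate (adjusted p = 0.0448) and of Mef2 and nau from intermediate to late (0.0477 and 0.0467).

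Uncalled log2 values changed sign as follows. With passage 4 as intermediate they were -0.031 for CG9416 and 0.22 for lmd from early to late and -0.022 for nau from intermediate to late over the lines. Under the same setting they were 0.20 for Mef2 in R1 (early to intermediate), -0.14 for nau in R1 (intermediate to late), -0.26 for twi in R4 and -0.30 for Him in R5 (early to intermediate), -5.61e-04 for zfh1 in R4 (early to late), and at early 0.0083 for Mef2 (R4 minus R1) and -0.0803 for zfh1 (R5 minus R4). Without passage 2 of each line nau at early (R5 minus R4) was 0.085. Without R1 the values over the lines were 0.52 for twi (early to intermediate), -0.81 for Him (intermediate to late), -0.26 for CG9416 and 0.46 for lmd (early to late). Without R4 they were 0.25 for Him and 0.013 for Idh3a (early to late) and -0.038 for nau (intermediate to late), and without R5 -0.00301 for zfh1 (early to intermediate).

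With 1 library left out, the values spanned these ranges. Over the lines from early to late they ran from 0.28 to 0.41 for Mef2 and -0.35 to 0.087 for lmd. Within R1 they ran from -0.19 to 0.14 for Mef2 (early to intermediate) and -0.58 to 2.36 for nau (intermediate to late), and within R4 from -0.11 to 0.51 for twi (early to intermediate) and -5.74e-04 to 0.24 for zfh1 (early to late). Within R5 they ran from -0.14 to 0.37 for Him (early to intermediate), from early to late -0.60 to 0.12 for twi and -0.17 to 0.20 for Mef2, and from intermediate to late -0.32 to 0.15 for zfh1, -0.32 to 0.047 for Mef2 and -1.18 to 0.30 for nau. Between lines they ran at early from -0.59 to 0.26 for Him and -0.20 to 0.054 for Mef2 (R4 minus R1) and -0.49 to 0.23 for nau (R5 minus R4), at intermediate from -0.16 to 0.086 for Mef2 (R5 minus R1), and at late from -0.016 to 0.13 for twi, -0.081 to 0.063 for Mef2 and -0.046 to 1.69 for nau (R4 minus R1) and -0.71 to 1.02 for nau (R5 minus R1). Adjusted p for Mef2 among lines at late ran from 0.00253 to 0.1198, and for the early to late change of twi among lines from 0.04896 to 0.235. Depth limits nau above all, with 0 to 83 reads a library.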
